A study of Homo sapiens with 12 samples.

Results

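The 32 genes described here encode the enzymes of cholesterol and fatty acid synthesis together with the proteins that govern their transcription by the sterol regulatory element-binding proteins (SREBPs). They were chosen by symbol as a pathway list: 18 genes of the sterol branch, 8 genes of the fatty acid branch and 6 genes of SREBP control. All 32 were among the 25049 genes in the count table, and all 32 passed the filter on low counts that left 21974 genes for testing. Polyadenylated RNA had been sequenced from MDA-MB-231b, a bone-tropic derivative of an established human triple-negative breast cancer cell line, obtained by repeated recovery from the marrow of athymic nude mice. The 12 samples formed 4 groups of 3: GLI2 KO cells with paclitaxel (GLI2 KO PTX), GLI2 KO cells with DMSO (GLI2 KO DMSO), WT cells with paclitaxel (WT PTX) and WT cells with DMSO (WT DMSO). GLI2 is a transcription factor of the Hedgehog pathway, and the knockout used lentiviral CRISPR-Cas9 with a guide against GLI2, while the series text names a non-targeted guide for comparison. Paclitaxel, a taxane that stabilises microtubules, was given at 50 nM for 2 days, and DMSO is its solvent. The labels do not say whether the edited cells were a clone or a pool.

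Cholesterol is built from acetyl-CoA through mevalonate, isoprenoids, squalene and lanosterol, whereas fatty acids are built from acetyl-CoA by carboxylation, chain synthesis, elongation and desaturation. SREBPs are made as inactive precursors in the membrane of the endoplasmic reticulum. When membrane sterols are low, SCAP carries the precursors to the Golgi, where proteases release the transcription factor. When sterols are plentiful, INSIG proteins hold SCAP back. The product of SREBF2 is known mainly for the sterol genes and that of SREBF1 mainly for the fatty acid genes, and INSIG1 is itself an SREBP target.

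The promoters of 4 members are printed first to show which motifs known from SREBP targets they hold. The 4 are SREBF2 and INSIG1 of the control group, FDPS of the sterol branch and SCD of the fatty acid branch. Among the members searched, SREBF2 alone held the sterol regulatory element marked below, and INSIG1 alone the E-box. FDPS had the largest paclitaxel change of its branch, and SCD the highest level per kilobase of exon. SREBF1, the control gene with the largest paclitaxel change, held none of the motifs marked here and is not printed. Each printed promoter is the stretch of 250 bases before the RefSeq start site on GRCh38.p14, read 5′ to 3′. All 4 are on the plus strand, which is the strand of the genes. The stretches lie at chr22:41832855-41833104, chr7:155297628-155297877, chr1:155308616-155308865 and chr10:100346983-100347232 in the order printed, and the outermost GENCODE 29 start of each gene falls inside its stretch. Capitals mark the sterol regulatory element TCACNCCAC, the NF-Y motif CCAAT and the E-box ATCACGTGA on either strand.
SREBF2: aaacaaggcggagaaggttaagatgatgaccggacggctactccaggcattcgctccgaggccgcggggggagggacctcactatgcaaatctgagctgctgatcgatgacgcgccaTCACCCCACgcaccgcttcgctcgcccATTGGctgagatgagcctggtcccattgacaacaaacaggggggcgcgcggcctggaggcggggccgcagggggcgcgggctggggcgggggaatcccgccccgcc
INSIG1: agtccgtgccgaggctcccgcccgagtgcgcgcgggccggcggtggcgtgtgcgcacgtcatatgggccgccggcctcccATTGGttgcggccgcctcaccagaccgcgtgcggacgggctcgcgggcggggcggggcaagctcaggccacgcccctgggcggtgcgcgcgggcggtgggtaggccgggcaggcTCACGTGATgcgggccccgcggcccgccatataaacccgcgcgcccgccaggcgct
FDPS: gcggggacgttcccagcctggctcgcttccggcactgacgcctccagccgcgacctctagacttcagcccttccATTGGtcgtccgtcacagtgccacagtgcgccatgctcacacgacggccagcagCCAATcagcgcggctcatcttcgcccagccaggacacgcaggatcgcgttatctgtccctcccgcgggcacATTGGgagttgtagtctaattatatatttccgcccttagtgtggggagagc
SCD: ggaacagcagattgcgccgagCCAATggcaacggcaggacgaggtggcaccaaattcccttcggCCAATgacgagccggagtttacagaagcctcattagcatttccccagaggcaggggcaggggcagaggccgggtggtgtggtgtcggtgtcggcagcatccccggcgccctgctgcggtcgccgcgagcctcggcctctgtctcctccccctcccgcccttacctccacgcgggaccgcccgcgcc
Positions are counted so that -1 is the last base before the start. The SREBF2 stretch held TCACCCCAC at -133 and CCAAT on the opposite strand at -106. The letters TCACNCCAC occurred in 239 of 27305 promoters of this length in the RefSeq table (0.875%) and in 1 of the 28 members that the table holds, SREBF2. The INSIG1 stretch held the E-box at -56, which occurred in 60 promoters (0.220%) and in no other member. CCAAT, the letters of the NF-Y factor that works with SREBPs, was present in 33.0% of all promoters. Among the members it was present in 12 of 15 sterol genes, 3 of 7 fatty acid genes and 3 of 6 control genes, with 3 copies in FDPS. The GC box GGGCGG was present in 26 of 28 members and in 42.3% of all promoters. Motifs were searched on both strands, a match describes letters only, and the absence of a match says nothing about binding. FDFT1, SQLE, ACAT2 and FASN were not in the promoter table.

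Library totals ran from 83230948 to 109018776 counts, and TMM factors from 1.05 to 1.07 in paclitaxel and from 0.927 to 0.959 in DMSO samples. GLI2 itself was measured at 3.97, 4.14 and 4.38 CPM (counts per 1000000, scaled for library composition by TMM factors) in GLI2 KO PTX cells, 9.28, 8.23 and 10.1 CPM in GLI2 KO DMSO cells, 6.42, 5.64 and 4.97 CPM in WT PTX cells, and 10.4, 11.4 and 10.6 CPM in WT DMSO cells. Its transcript was thus still present in the cells labelled GLI2 KO, lower than in WT by a log2 fold change of -0.44 ± 0.09 in paclitaxel (adjusted p = 0.000243, edgeR) and -0.23 ± 0.08 in DMSO (adjusted p = 0.0253, edgeR). Values after ± on the log2 scale are standard errors. VIM, the mesenchymal intermediate filament that marks MDA-MB-231 cells, averaged 1864 ± 116 CPM in GLI2 KO PTX, 2844 ± 155 CPM in GLI2 KO DMSO, 2177 ± 12.3 CPM in WT PTX and 2922 ± 16.2 CPM in WT DMSO cells (SD, n = 3 each). Mitochondrial transcripts took 4.83 to 5.33% of counts in paclitaxel samples and 3.99 to 4.69% in DMSO samples, so they moved with treatment, and their part in the results was not tested. GLI2 KO DMSO replicate 3 lay farthest from the other replicates of its group, at a root-mean-square log2 distance of 0.154 beside 0.107 to 0.127 for the other 11 samples, so counts are given with and without it. It was the highest of its group for 27 of the 32 members, as replicate 1 was in GLI2 KO PTX and in WT PTX. In bulk RNA, fewer cells of a kind and less RNA per cell cannot be told apart. Nothing in the labels says that replicates came from separate cultures, so p-values measure the spread between these samples only, which may be technical.

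Per kilobase of annotated exon, SCD, which inserts the first double bond into saturated fatty acids, had the highest level of the 32 genes. Its group means were 294 CPM per kb in GLI2 KO PTX, 522 in GLI2 KO DMSO, 195 in WT PTX and 345 in WT DMSO. FASN, the multifunctional fatty acid synthase, followed in DMSO with 329.5 CPM per kb in GLI2 KO and 199 in WT cells. The sterol branch was led by HMGCS1, the cytosolic HMG-CoA synthase, at 157 CPM per kb in GLI2 KO PTX, 208 in GLI2 KO DMSO, 125 in WT PTX and 147 in WT DMSO. The lowest levels were those of EBP, the sterol isomerase, and CYP51A1, the lanosterol demethylase, with at most 4.51 and 4.53 CPM per kb in any group. CYP51A1 shares 83.2% of its annotated exon bases with other genes, and ACAT2, which makes acetoacetyl-CoA, shares 52.3%. Counts of both, and of FDPS and HSD17B7, which have close copies in the genome, may include reads of other loci.

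**Figure D1:**
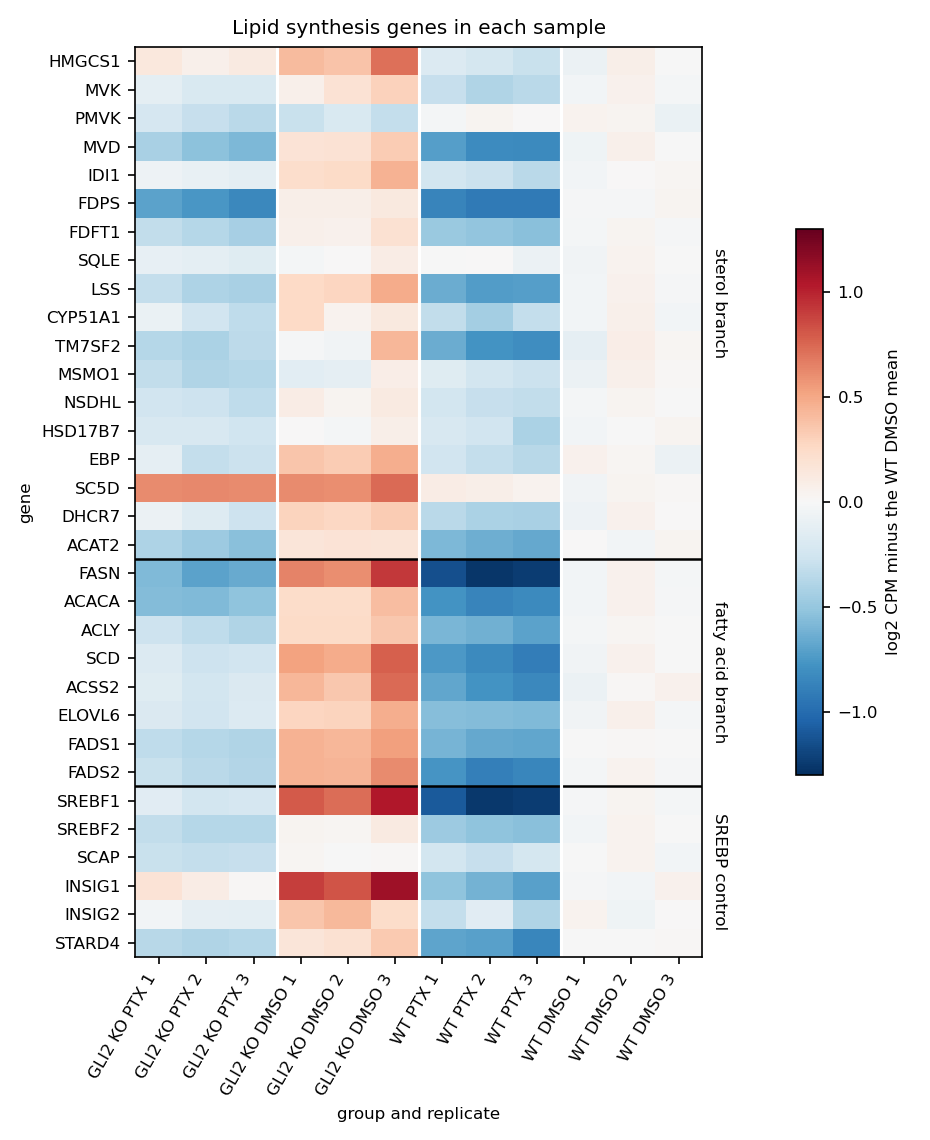
Level of each of the 32 genes (rows) in each of the 12 samples (columns), as log2 CPM minus the gene's mean in the 3 WT DMSO samples, with the 2 branches and the control genes separated by lines. Blue marks lower and red marks higher values: most genes are lowest in WT PTX and highest in GLI2 KO DMSO, with PMVK, SQLE, SC5D and MSMO1 among the exceptions.

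Paclitaxel lowered nearly the whole list in both genotypes. In GLI2 KO cells 30 of the 32 genes fell and none rose (edgeR quasi-likelihood test, adjusted p below 0.05), while of all genes tested 32.2% fell, 33.0% rose and 65.2% changed in either direction. These were 16 of 18 sterol genes, 8 of 8 fatty acid genes and 6 of 6 control genes. In WT cells 29 of the 32 fell and none rose, while of all genes tested 32.1% fell, 34.6% rose and 66.7% changed, with 15 of 18 sterol genes, 8 of 8 fatty acid genes and 6 of 6 control genes. The median log2 fold change in GLI2 KO cells was -0.83 for the fatty acid branch, -0.52 for the control genes and -0.41 for the sterol branch, beside 0.02 over all genes tested. The WT medians were -0.79, -0.56 and -0.33 in the same order, beside 0.03 over all genes tested. Replicates of paclitaxel and DMSO did not overlap for 30 of 32 genes in either genotype, against 67.2% of all genes tested in GLI2 KO and 71.5% in WT cells. Without GLI2 KO DMSO replicate 3, 30 genes fell and none rose in GLI2 KO cells, and 29 fell and 1 rose in WT cells, where SC5D passed at 0.068 (adjusted p = 0.0269, edgeR). Scaling by upper-quartile factors or by library totals moved the median of all genes with paclitaxel up by 0.12 to 0.18. With upper-quartile factors 29 members fell and 1 rose in GLI2 KO cells, and 27 fell and 3 rose in WT cells. With library totals 26 fell and 2 rose in GLI2 KO cells, and 26 fell and 3 rose in WT cells, the 8 fatty acid genes falling under each. The sterol median became -0.28 in GLI2 KO and -0.20 in WT cells with upper-quartile factors, and -0.23 in GLI2 KO and -0.17 in WT cells with library totals.

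Among the control genes SREBF1, which encodes the SREBP of fatty acid synthesis, changed most. SREBF1 was at 80.8, 75.8 and 77.0 CPM in GLI2 KO PTX cells, against 156, 148 and 184 CPM in GLI2 KO DMSO cells, and at 41.8, 37.6 and 38.0 CPM in WT PTX cells, against 88.7, 91.3 and 88.1 CPM in WT DMSO cells. Every paclitaxel sample lay below every DMSO sample of its genotype. The fold change was -1.06 ± 0.07 in GLI2 KO (adjusted p = 2.1e-07, edgeR) and -1.19 ± 0.08 in WT cells (adjusted p = 1.05e-07, edgeR). SREBF2, which encodes the SREBP of sterol synthesis, changed less. Its levels were 241, 233 and 233 CPM in GLI2 KO PTX, 309, 306 and 325 CPM in GLI2 KO DMSO, 218, 209 and 206 CPM in WT PTX, and 293, 311 and 299.6 CPM in WT DMSO cells. Treated and untreated samples did not overlap in either genotype, with fold changes of -0.41 ± 0.03 in GLI2 KO and -0.51 ± 0.03 in WT cells (adjusted p at most 4.24e-11, edgeR).

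INSIG1, the sterol-regulated anchor of SCAP, was at 365, 346 and 328 CPM in GLI2 KO PTX cells, against 605, 569.7 and 695 CPM in GLI2 KO DMSO cells. In WT cells it was at 225, 212 and 198 CPM with paclitaxel, against 319.8, 316 and 336 CPM with DMSO. The samples separated by treatment in each genotype, and the fold change was -0.85 ± 0.07 in GLI2 KO and -0.61 ± 0.07 in WT cells (adjusted p = 2.61e-06 and 3.43e-05 in that order, edgeR). STARD4, a cytosolic carrier of cholesterol, was at 148, 145 and 146 CPM in GLI2 KO PTX, 211, 218 and 239.9 CPM in GLI2 KO DMSO, 118, 116 and 106 CPM in WT PTX, and 189, 189 and 191 CPM in WT DMSO cells. It fell by 34.4% in GLI2 KO and by 40.3% in WT cells, with no overlap between treatments. INSIG2, the other anchor of SCAP, averaged 23 ± 0.791 CPM in GLI2 KO PTX, 31.2 ± 2.04 CPM in GLI2 KO DMSO, 20.2 ± 1.81 CPM in WT PTX, and 24.6 ± 0.849 CPM in WT DMSO cells (SD, n = 3 each). It fell by 26.2% in GLI2 KO and by 17.8% in WT cells. SCAP, the escort of the SREBPs, had the smallest fall of the control genes, by 19.6% in GLI2 KO and by 16.3% in WT cells.

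**Figure D2:**
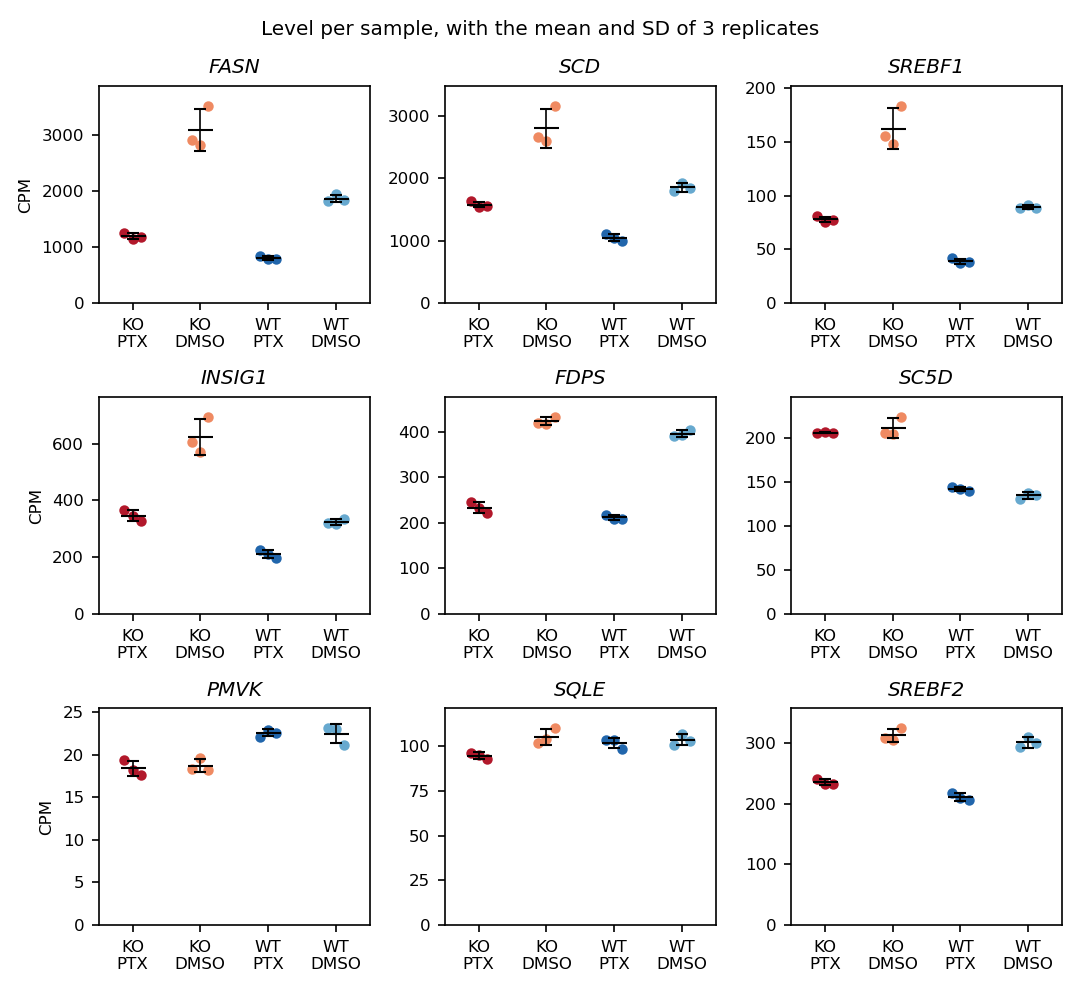
CPM (vertical axes, from 0) of 9 of the genes in each sample, with the mean and SD of the 3 samples per group. FASN, SCD, SREBF1 and INSIG1 show the pattern of both effects, FDPS and SREBF2 mostly that of paclitaxel, SC5D and PMVK that of genotype, and SQLE differs little between groups.

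In the fatty acid branch FASN had the largest paclitaxel change of all 32 genes. It was at 1251, 1147 and 1177 CPM in GLI2 KO PTX cells, against 2915, 2825 and 3517 CPM in GLI2 KO DMSO cells, and at 844, 776 and 792 CPM in WT PTX cells, against 1812, 1937 and 1831 CPM in WT DMSO cells. These values correspond to fold changes of -1.37 ± 0.08 in GLI2 KO and -1.21 ± 0.08 in WT cells (adjusted p at most 1.03e-07, edgeR), with no overlap between the treatments. ACACA, the acetyl-CoA carboxylase that supplies malonyl-CoA to FASN, was at 237, 235 and 243 CPM in GLI2 KO PTX, 411, 414 and 462 CPM in GLI2 KO DMSO, 205, 193 and 197 CPM in WT PTX, and 341, 364 and 345 CPM in WT DMSO cells. Its fold change was -0.85 ± 0.04 in GLI2 KO and -0.82 ± 0.04 in WT cells (adjusted p at most 2.21e-14, edgeR). Both enzymes that make the acetyl-CoA of the cytosol fell as well: ACLY, which cleaves citrate, changed by -0.61 ± 0.04 in GLI2 KO and -0.64 ± 0.04 in WT cells, and ACSS2, which uses acetate, by -0.71 ± 0.10 and -0.76 ± 0.10 in that order.

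The enzymes that modify the finished chain fell as well. SCD was at 1630.3, 1539.9 and 1562 CPM in GLI2 KO PTX, 2656, 2588 and 3161 CPM in GLI2 KO DMSO, 1101, 1045 and 993 CPM in WT PTX, and 1793, 1922 and 1837 CPM in WT DMSO cells. Treatments did not overlap within a genotype, and the fold changes were -0.83 ± 0.07 in GLI2 KO and -0.82 ± 0.07 in WT cells (adjusted p at most 4.02e-07, edgeR). FADS2, which starts the desaturation of polyunsaturated fatty acids, was at 340.3, 325 and 319 CPM in GLI2 KO PTX, 568, 567 and 637 CPM in GLI2 KO DMSO, 244, 225 and 231 CPM in WT PTX, and 408, 429 and 412 CPM in WT DMSO cells, with fold changes of -0.85 ± 0.04 in GLI2 KO and -0.84 ± 0.04 in WT cells. FADS1, the next desaturase of that path, which overlaps FADS2 on the opposite strand, had fold changes of -0.83 ± 0.03 in GLI2 KO and -0.65 ± 0.03 in WT cells. ELOVL6, which lengthens palmitate, changed least of the fatty acid branch, at -0.56 ± 0.04 in GLI2 KO and -0.57 ± 0.04 in WT cells.

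In the sterol branch the largest falls in both genotypes were at FDPS, MVD and LSS, steps that do not follow each other in the route, and at TM7SF2 in WT cells. FDPS, which makes farnesyl diphosphate, was at 245, 233 and 222 CPM in GLI2 KO PTX, 418, 418 and 433 CPM in GLI2 KO DMSO, 218, 209 and 209 CPM in WT PTX, and 390.5, 392 and 405 CPM in WT DMSO cells. Its fold change was -0.86 ± 0.03 in GLI2 KO (adjusted p = 1.37e-16, edgeR) and -0.90 ± 0.03 in WT cells (adjusted p = 9.72e-17, edgeR), with no overlap of treatments. MVD, the mevalonate diphosphate decarboxylase, was at 97.5, 90.4 and 87.1 CPM in GLI2 KO PTX, 147, 149 and 165 CPM in GLI2 KO DMSO, 79.6, 74.0 and 73.7 CPM in WT PTX, and 126, 137 and 129.8 CPM in WT DMSO cells. It fell by 40.4% in GLI2 KO and by 42% in WT cells. LSS, which closes squalene epoxide to lanosterol, was at 230.1, 215 and 214 CPM in GLI2 KO PTX, 342, 346 and 399 CPM in GLI2 KO DMSO, 182, 172 and 174 CPM in WT PTX, and 278, 296 and 283 CPM in WT DMSO cells. Again the treatments separated, with fold changes of -0.72 ± 0.05 in GLI2 KO and -0.70 ± 0.05 in WT cells. ACAT2 changed by -0.64 in GLI2 KO and -0.63 in WT cells, and TM7SF2, a sterol reductase, by -0.52 ± 0.12 in GLI2 KO and -0.74 ± 0.12 in WT cells.

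Smaller falls were found at other sterol steps, apart from EBP in GLI2 KO cells, which fell further there than TM7SF2. FDFT1, the squalene synthase, fell by 28.5% in GLI2 KO and by 30% in WT cells, and DHCR7, the terminal reductase, by 27.7% in GLI2 KO and by 23.9% in WT cells. MVK, the mevalonate kinase, fell by 21.9% in GLI2 KO and by 21.4% in WT cells, CYP51A1 by 22.3% and 22% in the same order, and HSD17B7, a ketoreductase of the lanosterol series, by 15.6% and 18%. IDI1, which isomerises isopentenyl diphosphate, fell by 24.8% in GLI2 KO and by 18.3% in WT cells. NSDHL, a decarboxylating sterol dehydrogenase, fell by 22.4% and 17.9% in the same order. MSMO1, the methylsterol oxidase, fell by 19.1% and 14.4%, and EBP by 35% and 19.3%. HMGCS1 fell by 24.3% in GLI2 KO and by 14.9% in WT cells (adjusted p = 0.00155 and 0.0289 in that order, edgeR). The WT call of HMGCS1 was lost under 8 of the alternatives, with adjusted p up to 0.483 when counts were scaled by library totals. With library totals the calls of HMGCS1, HSD17B7 and MSMO1 in GLI2 KO cells and of EBP and MSMO1 in WT cells were lost as well.

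The behaviour of 3 sterol genes stood apart. SQLE, the squalene epoxidase, was at 96.6, 95.3 and 92.9 CPM in GLI2 KO PTX, 102, 104 and 110.5 CPM in GLI2 KO DMSO, 103, 104 and 98.7 CPM in WT PTX, and 101, 107 and 103 CPM in WT DMSO cells. It fell by 10% in GLI2 KO cells (adjusted p = 0.000378, edgeR), a call that upper-quartile factors took away (adjusted p = 0.468) and that turned to 0.024 on the log2 scale with library totals, while in WT cells the treatments overlapped and the fold change was -0.02 (95% interval -0.09 to 0.05). PMVK, the phosphomevalonate kinase, overlapped between treatments in both genotypes, with a fold change of -0.03 (interval -0.13 to 0.07) in GLI2 KO and 0.00 (interval -0.09 to 0.10) in WT cells. SC5D, a late desaturase of the sterol ring, was at 206, 207 and 206 CPM in GLI2 KO PTX, 206, 204 and 224 CPM in GLI2 KO DMSO, 144, 142 and 139 CPM in WT PTX, and 131, 138 and 136 CPM in WT DMSO cells. Its fold change was -0.04 (interval -0.10 to 0.03) in GLI2 KO and 0.07 (interval 0.00 to 0.14) in WT cells. With library totals PMVK was called higher in paclitaxel at 0.15 in GLI2 KO and 0.16 in WT cells, SC5D at 0.14 and 0.23 in the same order, and SQLE at 0.13 in WT cells. With upper-quartile factors SQLE was called higher at 0.11 and PMVK at 0.14 in WT cells, and SC5D at 0.086 in GLI2 KO and 0.21 in WT cells. SC5D was also called higher in WT cells with a minimum count of 50 and with only the 2 groups compared.

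The genotype comparison moved the list the other way. In paclitaxel 24 of the 32 genes were higher in GLI2 KO than in WT cells, against 23.4% of all genes tested, and 2 were lower, against 22.2% (45.6% in either direction). In DMSO 23 were higher, against 22.0% of all genes tested, and 1 was lower, against 19.6% (41.6% in either direction). All 8 fatty acid genes were higher under both treatments. Of the 18 sterol genes 11 were higher and 2 lower in paclitaxel, and 11 were higher and 1 lower in DMSO. Of the 6 control genes 5 were higher in paclitaxel and 4 in DMSO. The median fold change in paclitaxel was 0.43 for the fatty acid branch, 0.28 for the control genes and 0.15 for the sterol branch, beside -0.01 over all genes tested, and in DMSO it was 0.49, 0.29 and 0.16 in the same order, beside 0.01. Genotypes did not overlap for 27 of 32 genes in paclitaxel, against 55.2% of all genes tested, and for 25 in DMSO, against 48.6%. Without GLI2 KO DMSO replicate 3, 24 genes were higher and 3 lower in paclitaxel, and 21 higher and 2 lower in DMSO. Marker sums of other cell types also differed by genotype. The 5 luminal markers in the table, of 6 listed, summed to 110 to 120 CPM in GLI2 KO PTX, 128 to 133 in GLI2 KO DMSO, 76.8 to 80.9 in WT PTX and 96.1 to 104 in WT DMSO cells, with no overlap between groups. Of these, PGR, GATA3, XBP1 and AGR2 had higher means in GLI2 KO than in WT cells under both treatments. FOXA1 went the other way, at 12.2 CPM in GLI2 KO PTX, against 18.8 CPM in WT PTX cells. In DMSO FOXA1 averaged 13.1 CPM in GLI2 KO, against 18.3 CPM in WT cells. The 5 stromal markers, of 7 listed, summed to 28.7 to 31.9 CPM in GLI2 KO PTX, 14.8 to 20.1 in GLI2 KO DMSO, 17.4 to 18.7 in WT PTX and 11.4 to 13.2 in WT DMSO cells. PDGFRA and PDGFRB had higher means in GLI2 KO than in WT cells under both treatments, and BGLAP had lower ones. COL1A1 and COL3A1 differed in direction between treatments, COL1A1 averaging 6.44 CPM in GLI2 KO DMSO, against 7.99 CPM in WT DMSO cells. The 4 adipocyte markers (PLIN1, PLIN4, FABP4 and LPL of 8 listed) summed to 2.95 to 3.63 CPM in GLI2 KO PTX, 4.58 to 6.84 in GLI2 KO DMSO, 1.39 to 1.86 in WT PTX and 2.48 to 3.37 in WT DMSO cells. Of these 4, PLIN4 and LPL had higher means in GLI2 KO than in WT cells under both treatments, whereas PLIN1 averaged 0.142 CPM in GLI2 KO DMSO, against 0.246 CPM in WT DMSO, and FABP4 averaged 0.139 CPM in GLI2 KO DMSO, against 1.25 CPM in WT DMSO cells. The part of these markers in the genotype differences was not tested.

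**Figure D3:**
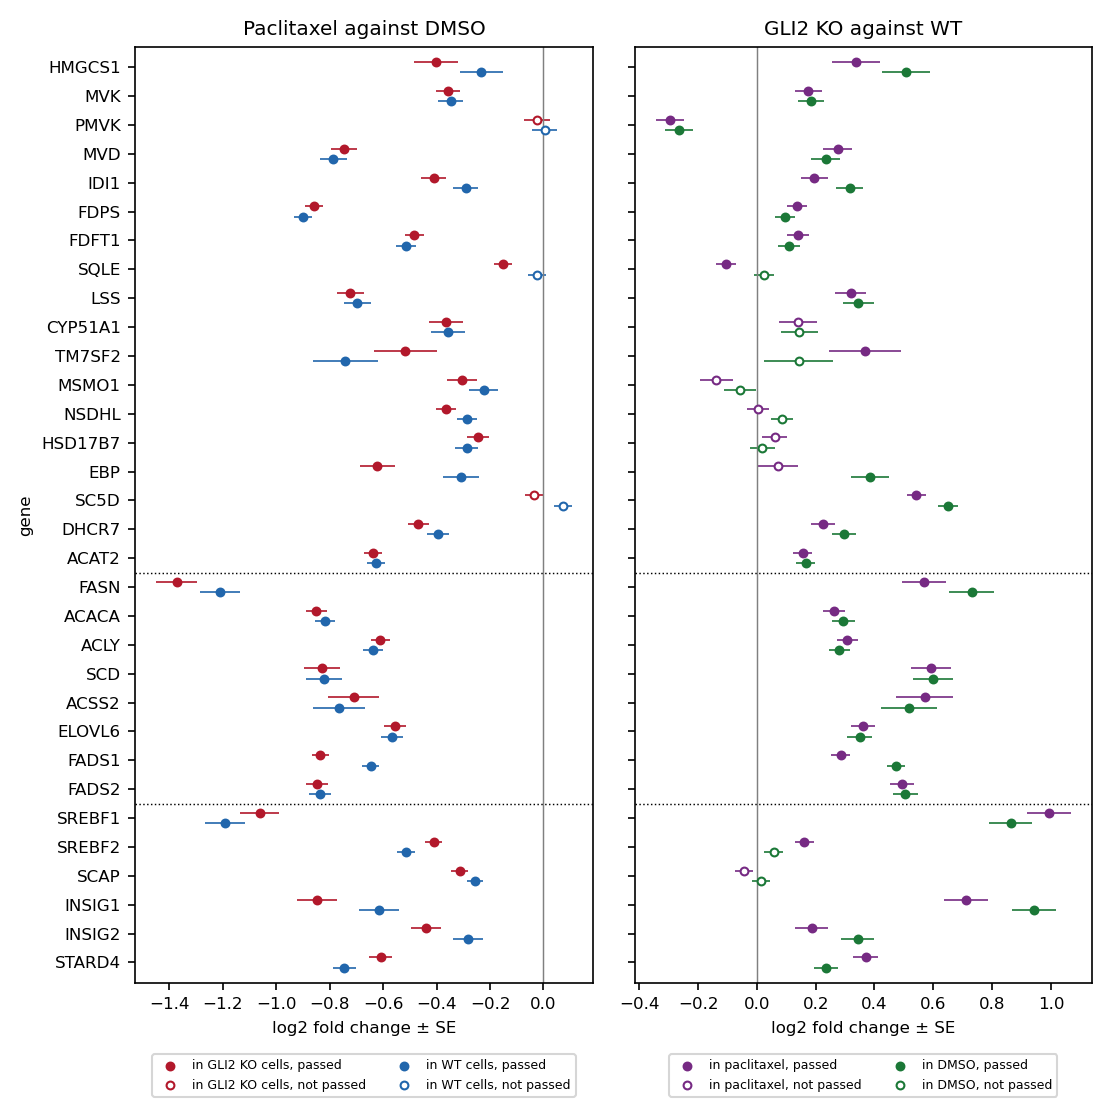
Log2 fold change (horizontal axes) of each gene with its standard error, for paclitaxel against DMSO in each genotype (left panel) and GLI2 KO against WT under each treatment (right panel). Filled points passed an adjusted p of 0.05 and open points did not: in the left panel the points lie below 0 except PMVK and SC5D in WT cells, and in the right panel most lie above 0, with PMVK and MSMO1 below it under both treatments.

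The control genes held the largest genotype differences. With the levels given above, INSIG1 was higher in GLI2 KO than in WT cells by 0.71 ± 0.07 in paclitaxel (adjusted p = 2.07e-05, edgeR) and by 0.94 ± 0.07 in DMSO (adjusted p = 2.17e-06, edgeR), and no GLI2 KO sample overlapped the WT samples of its treatment. SREBF1 was higher by 0.99 ± 0.08 in paclitaxel (adjusted p = 1.03e-06, edgeR) and by 0.86 ± 0.07 in DMSO (adjusted p = 2.43e-06, edgeR). Without GLI2 KO DMSO replicate 3 the DMSO differences were 0.86 for INSIG1 and 0.77 for SREBF1. STARD4 was higher by 0.37 ± 0.04 in paclitaxel and by 0.23 ± 0.04 in DMSO, and INSIG2 by 0.19 ± 0.06 and 0.34 ± 0.06 in that order. SREBF2 was higher by 11.8% in paclitaxel, while in DMSO its difference of 0.06 (interval -0.01 to 0.12) did not pass. SCAP did not pass in paclitaxel (-0.04, interval -0.11 to 0.02) or in DMSO (0.01, interval -0.05 to 0.08).

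Every fatty acid gene differed by genotype without overlap of the samples. FASN was higher in GLI2 KO cells by 48.3% in paclitaxel and by 65.9% in DMSO, and SCD by 50.7% and 51.4% in that order. ACSS2 was at 99.3, 93.5 and 97.1 CPM in GLI2 KO PTX, 149, 140.5 and 184 CPM in GLI2 KO DMSO, 69.3, 64.2 and 61.6 CPM in WT PTX, and 105, 112 and 115 CPM in WT DMSO cells, which gave differences of 48.5% in paclitaxel and 43.1% in DMSO. FADS2 was higher by 40.8% in paclitaxel and by 41.9% in DMSO. The smaller differences in DMSO were those of ELOVL6 (0.36 ± 0.04 in paclitaxel and 0.35 ± 0.04 in DMSO), ACLY (0.31 ± 0.04 and 0.28 ± 0.04) and ACACA (0.26 ± 0.04 and 0.29 ± 0.04). FADS1 was higher by 0.28 in paclitaxel, between ACACA and ACLY, and by 0.47 in DMSO. Without GLI2 KO DMSO replicate 3 the DMSO differences of FASN, SCD and ACSS2 were 0.63, 0.50 and 0.39.

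Within the sterol branch SC5D, which paclitaxel had not moved past the threshold, had the largest genotype difference, 0.54 ± 0.03 in paclitaxel (adjusted p = 8.52e-13, edgeR) and 0.65 ± 0.03 in DMSO (adjusted p = 2.3e-14, edgeR). HMGCS1 was at 755, 721 and 744 CPM in GLI2 KO PTX, 916, 892 and 1127 CPM in GLI2 KO DMSO, 608, 586 and 564 CPM in WT PTX, and 655, 727 and 685 CPM in WT DMSO cells, a difference of 26.3% in paclitaxel and 42% in DMSO with no overlap. LSS was higher in GLI2 KO by 24.7% in paclitaxel and by 27.1% in DMSO. The first steps after HMGCS1 differed in size and sign, since MVD was higher by 21% in paclitaxel and 17.6% in DMSO whereas PMVK, the kinase just before it in the route, was lower. PMVK was at 19.3, 18.2 and 17.6 CPM in GLI2 KO PTX, 18.3, 19.6 and 18.2 CPM in GLI2 KO DMSO, 22.1, 22.9 and 22.6 CPM in WT PTX, and 23.2, 23.1 and 21.2 CPM in WT DMSO cells. Its groups did not overlap, and the difference was -0.30 ± 0.05 in paclitaxel (adjusted p = 1.38e-05, edgeR) and -0.27 ± 0.05 in DMSO (adjusted p = 6.74e-05, edgeR).

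IDI1, DHCR7, MVK, ACAT2, FDFT1 and FDPS were higher in GLI2 KO cells under both treatments, by 0.14 to 0.22 in paclitaxel and by 0.10 to 0.32 in DMSO. The DMSO differences of FDPS (adjusted p = 0.0218, edgeR) and FDFT1 (adjusted p = 0.0171, edgeR) were lost in several alternatives, FDPS with adjusted p of 0.0555 and FDFT1 with 0.116 without GLI2 KO DMSO replicate 3. TM7SF2 was at 16.5, 16.1 and 17.0 CPM in GLI2 KO PTX, 21.1, 20.7 and 28.9 CPM in GLI2 KO DMSO, 13.7, 12.5 and 12.2 CPM in WT PTX, and 19.8, 22.7 and 21.9 CPM in WT DMSO cells. Its genotypes separated in paclitaxel (0.37 ± 0.12, adjusted p = 0.0332, edgeR) and overlapped in DMSO (0.14 ± 0.12), where 1 of the 3 GLI2 KO samples lay well above the other two. The paclitaxel call of TM7SF2 was lost under 7 alternatives, with adjusted p up to 0.111 without WT PTX replicate 3. SQLE was lower by 0.10 in paclitaxel (adjusted p = 0.0143, edgeR), a call lost without GLI2 KO PTX replicate 3, WT PTX replicate 1 or WT PTX replicate 2 (adjusted p 0.0598 to 0.0649). CYP51A1, MSMO1, NSDHL and HSD17B7 did not pass under either treatment, with fold changes of -0.14 to 0.14. Some alternatives called CYP51A1 higher in GLI2 KO under each treatment. It was at 0.20 in DMSO without GLI2 KO DMSO replicate 2, and at 0.20 in paclitaxel without GLI2 KO PTX replicate 3. NSDHL was called higher in DMSO, at 0.11, without GLI2 KO DMSO replicate 2. MSMO1 was called lower in GLI2 KO in paclitaxel under 8 alternatives, at -0.17 to -0.13, among them DESeq2 and the fit on only the 2 groups. In DMSO it was called lower, at -0.13, without GLI2 KO DMSO replicate 3 and without libraries 11 and 12.

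The paclitaxel effect itself differed between genotypes for 2 of the 32 genes, both lower. Of all genes tested 6.93% were lower, 6.56% higher and 13.5% either. EBP was at 7.64, 6.73 and 6.86 CPM in GLI2 KO PTX, against 10.7, 10.5 and 11.5 CPM in GLI2 KO DMSO, and at 6.99, 6.69 and 6.49 CPM in WT PTX, against 8.64, 8.45 and 7.87 CPM in WT DMSO cells. The genotypes overlapped in paclitaxel and were apart in DMSO, and the fall of EBP was larger in GLI2 KO cells (difference -0.31 ± 0.09, adjusted p = 0.0281, edgeR). FADS1 was at 285, 279 and 274 CPM in GLI2 KO PTX, against 490.0, 484 and 521 CPM in GLI2 KO DMSO, and at 236, 227 and 225 CPM in WT PTX, against 357, 363 and 357 CPM in WT DMSO cells, so that its fall was larger in GLI2 KO cells (difference -0.19 ± 0.04, adjusted p = 0.00563, edgeR). FADS2, beside it on chromosome 11, had a difference of -0.01 (interval -0.13 to 0.11). Without GLI2 KO DMSO replicate 3, EBP no longer passed (adjusted p = 0.0511, edgeR), FADS1 still did, and 4 genes passed in the other direction: TM7SF2 by 0.40, SREBF1 by 0.23, STARD4 by 0.19 and SREBF2 by 0.13. Calls in that other direction appeared only with GLI2 KO DMSO replicate 3 left out. The count for the difference of effects ran from 1 to 5 as single samples were left out, and several other samples also cost EBP its call. Over the 32 members the log2 fold changes of paclitaxel in the 2 genotypes, which share no samples, had a Pearson r of 0.93, beside 0.87 over all genes tested, as a description across genes that are not independent.

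The sterol and fatty acid branches were then set side by side. The fatty acid branch moved further in each of the 4 group comparisons, by the medians above, but the ranges of the single genes overlapped. In GLI2 KO cells 5 of 18 sterol genes (MVD, FDPS, LSS, EBP and ACAT2) fell with paclitaxel at least as far as ELOVL6, the least changed fatty acid gene, and in WT cells 5 did (MVD, FDPS, LSS, TM7SF2 and ACAT2). For GLI2 KO against WT, 5 sterol genes in paclitaxel (HMGCS1, MVD, LSS, TM7SF2 and SC5D) exceeded the smallest fatty acid difference, that of ACACA, and 6 in DMSO (HMGCS1, IDI1, LSS, EBP, SC5D and DHCR7) exceeded that of ACLY. No test was made of the branches, since the genes of a branch are not replicates of each other.

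Within each sample the 2 branches could be compared without regard to scaling. Each gene's log2 CPM was set against its mean in WT DMSO, and the median was taken over each branch. The fatty acid median was -0.28, -0.34 and -0.39 in GLI2 KO PTX, 0.44, 0.39 and 0.58 in GLI2 KO DMSO, and -0.71, -0.80 and -0.83 in WT PTX. The sterol median was -0.21, -0.29 and -0.33 in GLI2 KO PTX, 0.13, 0.13 and 0.25 in GLI2 KO DMSO, and -0.28, -0.35 and -0.36 in WT PTX. The fatty acid branch thus stood above the sterol branch in every GLI2 KO DMSO sample, by 0.26 to 0.33, and below it in every WT PTX sample, by -0.48 to -0.43. In GLI2 KO PTX samples, which carry both the knockout and the drug, the branches lay within -0.07 to -0.06 of each other. The sterol medians of GLI2 KO PTX and WT PTX samples overlapped, whereas their fatty acid medians did not. As a share of all counts, the 8 fatty acid genes took 0.465 to 0.486% in GLI2 KO PTX, 0.756 to 0.920% in GLI2 KO DMSO, 0.328 to 0.355% in WT PTX and 0.547 to 0.579% in WT DMSO cells. The 18 sterol genes took 0.330 to 0.344%, 0.392 to 0.451%, 0.285 to 0.304% and 0.341 to 0.360% in the same order of groups.

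**Figure D4:**
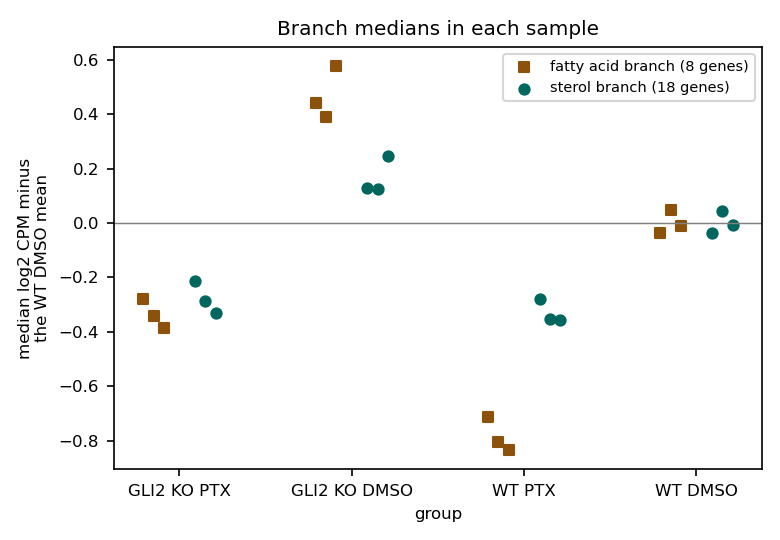
Median over the 8 fatty acid genes (squares) and the 18 sterol genes (circles) of log2 CPM minus the WT DMSO mean, for each of the 12 samples (points). The squares lie above the circles in GLI2 KO DMSO, below them in WT PTX and close to them in GLI2 KO PTX. In WT DMSO they lie close by construction, because each gene was set against its mean in that group.

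Because a stretch of chromosome can differ between cell populations, each member's genotype difference was set beside the median of the 50 nearest tested genes (fewer near some chromosome ends), a description chosen after the data were seen. For most members the neighbours lay near 0. FASN differed by 0.73 in DMSO beside a neighbour median of 0.01, SCD by 0.60 beside -0.01, HMGCS1 by 0.51 beside 0.02, and INSIG1 by 0.94 beside 0.12 over 46 neighbours. SC5D differed by 0.54 in paclitaxel and 0.65 in DMSO, and its neighbours on chromosome 11 by 0.38 and 0.45. SREBF1 differed by 0.99 in paclitaxel and 0.86 in DMSO, and its neighbours on chromosome 17 by 0.32 and 0.42. The neighbours of SQLE on chromosome 8 were higher by 0.33 in paclitaxel and 0.36 in DMSO, while SQLE itself was at -0.10 and 0.02. Those of MSMO1 on chromosome 4 were lower, at -0.28 in paclitaxel and -0.30 in DMSO, with MSMO1 at -0.14 and -0.06. The part of such regional differences in the values of SC5D, SREBF1, SQLE and MSMO1 was not tested.

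**Figure D5:**
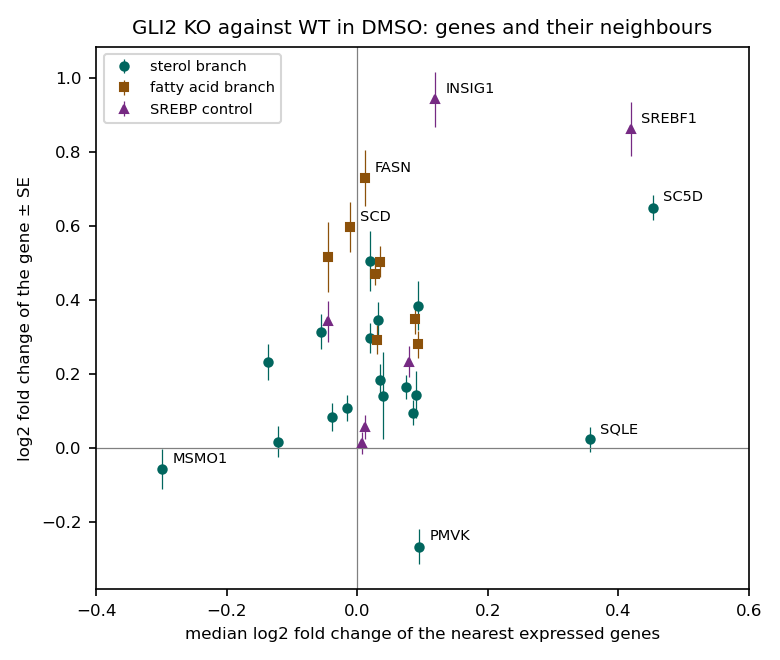
Log2 fold change of GLI2 KO against WT in DMSO for each of the 32 genes, with its standard error (vertical axis), against the median log2 fold change of its nearest tested genes (horizontal axis). FASN, SCD and INSIG1 sit high with neighbours near 0, while SREBF1 and SC5D sit high with neighbours at 0.42 and 0.45.

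Genes that act around the pathway were counted from lists of their own, to be read beside the shares of all genes tested given above: with paclitaxel 32.2% fell and 33.0% rose in GLI2 KO cells, and 32.1% fell and 34.6% rose in WT cells. Of 14 genes for SREBP processing and cofactors, 9 fell and 2 rose with paclitaxel in GLI2 KO cells, and 10 fell and 2 rose in WT cells, with a median of -0.19 in each. MBTPS1, a Golgi protease that cuts the SREBPs, changed by -0.51 ± 0.03 in GLI2 KO and -0.46 ± 0.03 in WT cells, while NFYA, a subunit of NF-Y, rose by 0.28 ± 0.03 in GLI2 KO and by 0.12 ± 0.03 in WT cells. RNF145, a ubiquitin ligase of the endoplasmic reticulum, fell further in GLI2 KO than in WT cells (difference -0.31 ± 0.05, adjusted p = 0.000142, edgeR). Of 15 genes that supply acetyl-CoA and NADPH, 14 fell in each genotype and none rose, with medians of -0.41 in GLI2 KO and -0.40 in WT cells. IDH2, a mitochondrial isocitrate dehydrogenase, changed by -0.96 ± 0.05 in GLI2 KO and -0.99 ± 0.05 in WT cells. By genotype 6 genes of this list were higher and 3 lower in paclitaxel, against 23.4% and 22.2% of all genes tested, and 5 were higher and 5 lower in DMSO, against 22.0% and 19.6%. PGD, an NADPH-forming enzyme of the pentose phosphate pathway, was higher by 0.90 ± 0.03 in paclitaxel and 1.01 ± 0.03 in DMSO, with neighbours on its chromosome at a median of 0.95 in DMSO.

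Genes of lipid assembly and breakdown were counted in the same way. Of 22 tested genes of acyl-CoA and glycerolipid synthesis, 18 fell in each genotype, while 2 rose in GLI2 KO and 1 rose in WT cells, and the medians were -0.36 and -0.33. LPCAT3, which remodels phospholipids, changed by -1.04 ± 0.04 in GLI2 KO and -0.83 ± 0.05 in WT cells, and DGAT2, which completes triglycerides, rose by 0.76 ± 0.15 in GLI2 KO and by 1.42 ± 0.14 in WT cells at levels of 1.22 to 3.22 CPM. By genotype 12 of these genes were higher and 5 lower in paclitaxel, against 23.4% and 22.2% of all genes tested. In DMSO 11 were higher and 4 lower, against 22.0% and 19.6%. Of 19 genes of fatty acid oxidation, 16 fell and 1 rose in GLI2 KO cells, and 15 fell and 2 rose in WT cells, with a median of -0.30 in each. HADH, an enzyme of mitochondrial oxidation, changed by -0.80 ± 0.03 in GLI2 KO and -0.58 ± 0.03 in WT cells. Of 18 tested genes for elongation and desaturation outside the members, 11 fell in GLI2 KO and 13 in WT cells, with 4 rising in each and medians of -0.30 and -0.26. ACACB, the mitochondrial acetyl-CoA carboxylase, changed by -0.75 ± 0.04 in GLI2 KO and -0.56 ± 0.04 in WT cells and was lower in GLI2 KO than in WT by -0.46 ± 0.04 in paclitaxel and -0.27 ± 0.04 in DMSO, whereas its cytosolic counterpart ACACA was higher.

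The last lists hold genes that branch off from the sterol route or handle its products. Of 13 non-sterol isoprenoid genes, 8 fell and 2 rose in GLI2 KO cells, and 6 fell and 2 rose in WT cells, with medians of -0.13 and -0.04. GGPS1, which extends the farnesyl diphosphate made by FDPS, rose by 0.38 ± 0.07 in GLI2 KO and by 0.53 ± 0.07 in WT cells. Of 25 genes for sterol uptake, transport, storage and efflux, 13 fell and 4 rose in GLI2 KO cells, and 14 fell and 7 rose in WT cells, with medians of -0.14 and -0.17. LRP8, a lipoprotein receptor, changed by -0.66 ± 0.03 in GLI2 KO and -0.63 ± 0.03 in WT cells. SOAT2, which esterifies cholesterol, had 43 counts over the GLI2 KO PTX samples and 0 over the GLI2 KO DMSO samples. This was at least 14.2-fold higher against a floor of 3 counts over the group. In WT cells SOAT2 was higher with paclitaxel as well, with 112 counts over the WT PTX samples and 5 over the WT DMSO samples. CYP27A1, a sterol hydroxylase, rose by 2.94 ± 0.38 in GLI2 KO and by 3.19 ± 0.37 in WT cells, with group means of 0.0491 to 0.479 CPM. VLDLR, another lipoprotein receptor, was higher in GLI2 KO than in WT cells by 1.28 ± 0.12 in paclitaxel (adjusted p = 3.77e-09, edgeR), at 4.51 CPM in GLI2 KO PTX, against 1.85 CPM in WT PTX cells.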

How the data were processed

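The deposited table holds unnormalised whole-number counts per gene for all 12 samples, and the authors' second table, a scaled copy of it, was not used. Tools named per the submitters' processing notes are STAR, Trim Galore 0.6.7 and DESeq2 1.36.0, with hg38 as the genome build and no roles. Which program counted reads, with which annotation and strand setting, is not stated in the sources used here. QIAzol extraction and qScript reverse transcription are per the labels.

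The counts were tested with edgeR 4.0.16 in R 4.3.3 (quasi-likelihood F test, robust, TMM factors, filterByExpr with a minimum count of 10), with 1 mean per group over all 12 samples, and p-values were adjusted by Benjamini-Hochberg over the 21974 genes tested in each contrast. The threshold was 0.05 and all tests were two-sided. An exact permutation test of 3 samples against 3 cannot go below p = 0.1. Scripts were tested on simulated data. Intervals are at 95%, and the SOAT2 floor covers counting error only. Groups came from the sample titles. Members and lists were chosen with earlier results of these data known. Genes given in full were SREBF1, SREBF2, INSIG1, FASN, the members passing the difference of effects and the 3 members of each list with the largest change per comparison. PMVK and SQLE were added after their values were seen. From each further list, genes were taken from those with the largest changes. Coordinates and exon overlaps are from GENCODE 29 and promoters from RefSeq. Alternatives were other scaling factors, other filters, DESeq2 1.42.0, fits on the 2 groups compared and leaving out samples. Leaving out libraries 11 and 12 together, GLI2 KO DMSO replicate 3 and GLI2 KO PTX replicate 3, was added after the data were seen. The 5 hepatocyte, 8 haematopoietic and 7 stromal markers, of which 3, 4 and 5 are in the table, summed to at most 0.998, 2.63 and 31.9 CPM in any sample. Markers outside the table were not analysed here.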

Additional observations from a re-analysis of the deposited data

Results flagged for a closer look

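A difference of the paclitaxel effect between the genotypes passed the test for 2 members. For EBP, the sterol isomerase, the log2 fold change of paclitaxel was -0.62 ± 0.07 in GLI2 KO and -0.31 ± 0.07 in WT cells, a difference of -0.31 (adjusted p = 0.0281, edgeR). That call was lost when any 1 of 6 samples was left out: GLI2 KO PTX replicate 2 or 3, GLI2 KO DMSO replicate 3, WT PTX replicate 1 or 2, or WT DMSO replicate 3, with adjusted p from 0.0511 to 0.0849. For FADS1, a desaturase of polyunsaturated fatty acids, the fold change was -0.83 ± 0.03 in GLI2 KO and -0.65 ± 0.03 in WT cells, a difference of -0.19 (adjusted p = 0.00563, edgeR). FADS1 passed under every alternative tried.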

How the results depend on the processing

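Over 32 genes and 5 contrasts, 3083 results of the alternatives stayed on the same side of the threshold with no called result changing direction. Of the others 44 lost their call, 35 gained one and 6 reversed. A reversal was counted only where either fit called the gene, so sign changes of uncalled genes are among the 3083. For example, TM7SF2 for GLI2 KO against WT in DMSO moved from 0.14 to -0.03 without GLI2 KO DMSO replicate 3. The reversals all concerned paclitaxel against DMSO. In GLI2 KO cells library totals gave 0.15 for PMVK, 0.024 for SQLE and 0.14 for SC5D, and upper-quartile factors gave 0.086 for SC5D. In WT cells SQLE was at 0.11 with upper-quartile factors and 0.13 with library totals. Both scalings moved the median of all genes with paclitaxel, by 0.12 and 0.18 in GLI2 KO and by 0.13 and 0.16 in WT cells in the order upper-quartile, library totals. The sterol median for paclitaxel then became -0.28 and -0.23 in GLI2 KO and -0.20 and -0.17 in WT cells, and the fatty acid median -0.71 and -0.66 in GLI2 KO and -0.66 and -0.63 in WT cells. A minimum count of 50 gave sterol medians of -0.35 in GLI2 KO and -0.26 in WT cells and a fatty acid median of -0.72 in WT cells. Leaving out single samples gave -0.46 to -0.35 for the sterol median of paclitaxel in GLI2 KO cells, 0.42 to 0.52 for the fatty acid median of GLI2 KO against WT in DMSO, and 1 to 5 genes for the difference of effects. Without libraries 11 and 12 the sterol and fatty acid medians of paclitaxel in GLI2 KO cells were -0.32 and -0.75, the fatty acid median of GLI2 KO against WT in DMSO was 0.42 and that of the difference of effects 0.066, and 5 genes passed for the difference of effects. For the medians the cause was not tested. No paired analysis was made, because the labels give no replicate numbers. The replicate numbers used here were assigned by the order of the samples and do not always follow the library numbers. A fit with neighbouring library numbers as a block was not run, since the labels do not call them pairs.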
